A study of Arabidopsis thaliana with 12 samples.

Results

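The 10 genes of reactive oxygen metabolism were followed in Arabidopsis leaves and guard cell preparations treated with the hormone abscisic acid (ABA). They were chosen by name as 10 of the 36796 loci in the deposited count table: 2 NADPH oxidase genes (RBOHD and RBOHF), 3 catalase genes (CAT1, CAT2 and CAT3), 2 ascorbate peroxidase genes (APX1 and APX2) and 3 superoxide dismutase genes (CSD1, CSD2 and FSD1). All 10 were found in the table. Of these, 9 passed the filter on low counts, and APX2 did not.

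The study measured messenger RNA in 12 libraries, which form 6 groups of 2 biological replicates. All plants were of accession Col-0, were 5 to 6 weeks old, grew at 22 °C with 12 h of light, and were sprayed with 50 µM ABA or with its ethanol vehicle, the control, 4 h before RNA was taken. The groups are guard cell preparations from wild-type plants (control and ABA), wild-type whole leaves (control and ABA) and whole leaves of the abf1/2/3/4 mutant (control and ABA). This mutant carries mutations in the genes of ABF1 to ABF4, bZIP transcription factors that act in ABA signalling. RNA of guard cell preparations was taken from fragments of isolated leaf epidermis with another kit than leaf RNA, so cell type, isolation and kit cannot be told apart between these materials. Nothing in the labels says whether the 2 replicates of a group came from separate plantings, and p-values measure only the spread between these libraries.

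NADPH oxidases of the RBOH family sit in the plasma membrane and pass electrons from NADPH to oxygen outside the cell, which makes superoxide. Superoxide dismutases turn superoxide into hydrogen peroxide, and catalases in peroxisomes and ascorbate peroxidases in the cytosol and organelles remove the peroxide. In guard cells, the pair of cells around each stomatal pore, RBOHD and RBOHF are known for the oxidative signal that takes part in ABA-induced closure. ABF proteins bind promoter elements with the core ACGTG.

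The bases just upstream of a gene's annotated start are shown for the 4 genes whose ABA response differed between wild-type and mutant leaves, because factors that bind ACGTG are mutated in these plants. They were read from RefSeq assembly TAIR10.1 on the gene's strand, and capitals mark ACGTG on either strand, which reads CACGT on the opposite one.
APX1, chr1:2437031-2437280, plus strand: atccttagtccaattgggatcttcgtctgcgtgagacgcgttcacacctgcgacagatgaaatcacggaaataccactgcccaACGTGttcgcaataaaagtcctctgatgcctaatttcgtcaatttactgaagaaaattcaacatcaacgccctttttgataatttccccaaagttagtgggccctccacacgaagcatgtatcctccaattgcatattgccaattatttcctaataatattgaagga
CAT1, chr1:7146541-7146635, plus strand: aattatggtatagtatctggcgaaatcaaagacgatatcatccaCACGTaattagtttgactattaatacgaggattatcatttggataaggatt
RBOHD, chr5:19396791-19397040, plus strand: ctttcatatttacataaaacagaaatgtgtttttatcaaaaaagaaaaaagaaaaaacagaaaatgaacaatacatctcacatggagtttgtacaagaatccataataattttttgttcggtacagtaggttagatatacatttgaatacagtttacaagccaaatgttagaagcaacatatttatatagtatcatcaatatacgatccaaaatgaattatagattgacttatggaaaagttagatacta
RBOHF, chr1:23769524-23769773, plus strand: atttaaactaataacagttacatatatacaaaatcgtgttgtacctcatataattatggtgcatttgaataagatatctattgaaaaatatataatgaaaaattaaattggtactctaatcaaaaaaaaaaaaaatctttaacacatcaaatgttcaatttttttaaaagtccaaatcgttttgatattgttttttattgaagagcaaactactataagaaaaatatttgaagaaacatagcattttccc
The CAT1 stretch is the whole gap of 95 bases between the end of CAT3 and the start of CAT1, which lie in tandem on the plus strand of chromosome 1. ACGTG was found once in the APX1 window and once in the CAT1 gap, and was not found in the 250 bases upstream of RBOHD or RBOHF. Of the other members, CSD1 held 2 separate matches, counting both strands. APX2 held 1 CACGTG, which reads the same on either strand and so matches on both. CAT2, CAT3, CSD2 and FSD1 held none. Among 27443 windows of 250 bases upstream of protein-coding genes, 22.9% held ACGTG, so a match is common and describes only these letters. These windows could reach into neighbouring loci, and their share does not apply to the shorter CAT1 gap of 95 bases.

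Library totals ran from 25294558 to 47116819 counts, and the biological coefficient of variation over the 6 groups was 8.98%. Levels are normalised read counts (cpm, counts scaled to a common library size with TMM factors), tests are edgeR's quasi-likelihood F-test with Benjamini-Hochberg adjustment over 22341 loci, and "called" means an adjusted p below 0.05. The mutant leaves had lower levels of all 4 targeted ABF genes than the wild type, in control and ABA samples alike. The 8 guard cell markers were all higher in guard cell preparations than in wild-type leaves at control (median log2 difference 3.27). Their summed level was 6260 to 6860 cpm against 2680 to 3450 cpm. Most of that sum was the marker TGG1, at a mean of 5290 cpm against 2948 cpm, so the sum mainly follows this gene. The preparations were not pure: 6 mesophyll markers together stood at 13600 to 14100 cpm, against 36800 to 38600 cpm in leaves, and 6 vasculature markers at 3810 to 3930 cpm, against 958 to 984 cpm. With ABA, 7 of the 8 guard cell markers fell in the preparations (sum 2070 to 2210 cpm) and 5 of the 6 mesophyll markers fell in wild-type leaves (sum 20100 to 23900 cpm). Against wild-type ABA leaves, 7 of the 8 guard cell markers were still higher in the preparations and 1 was lower (median log2 difference 1.61). In mutant leaves the mesophyll sum was 28300 to 29100 cpm at control and 26400 to 30600 cpm with ABA, and no marker was at 0 in any group. The summed level of 6 epidermis markers was 1590 to 1720 cpm in guard cell control libraries and 909 to 915 cpm in wild-type control leaves. At control 2 of the 6 were called higher in the preparations than in wild-type leaves. Another 2 were called lower and 2 were not called (median log2 difference 0.07). The higher ones were CER6 (mean 896.2 against 330.5 cpm) and FDH (437.7 against 166.6 cpm). With ABA the epidermis sum was 2820 to 2910 cpm in guard cell preparations and 2960 to 3160 cpm in wild-type leaves. In wild-type leaves 5 of the 6 were called higher with ABA and 1 lower. In mutant leaves the epidermis sum was 700 to 851 cpm at control and 1330 to 1500 cpm with ABA. For 5 wounding and touch genes the sum was 287 to 314 cpm in guard cell control and 1810 to 1950 cpm with ABA. It was 1900 to 2180 and 10700 to 13300 cpm in wild-type leaves, and 1580 to 2800 and 8270 to 9920 cpm in mutant leaves. LOX2 made up most of this sum, at a mean of 197.1 cpm in guard cell control and 1915 cpm in wild-type control libraries. At control, 2 of the 5 were called higher in the preparations than in wild-type leaves, and 3 lower. The higher ones were TCH4 (42.8 against 20.5 cpm) and TCH2 (32.5 against 18.4 cpm). The part of these shifts in the results below was not tested. In such bulk samples, fewer cells of a type and less RNA per cell cannot be told apart.

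**Figure D1:**
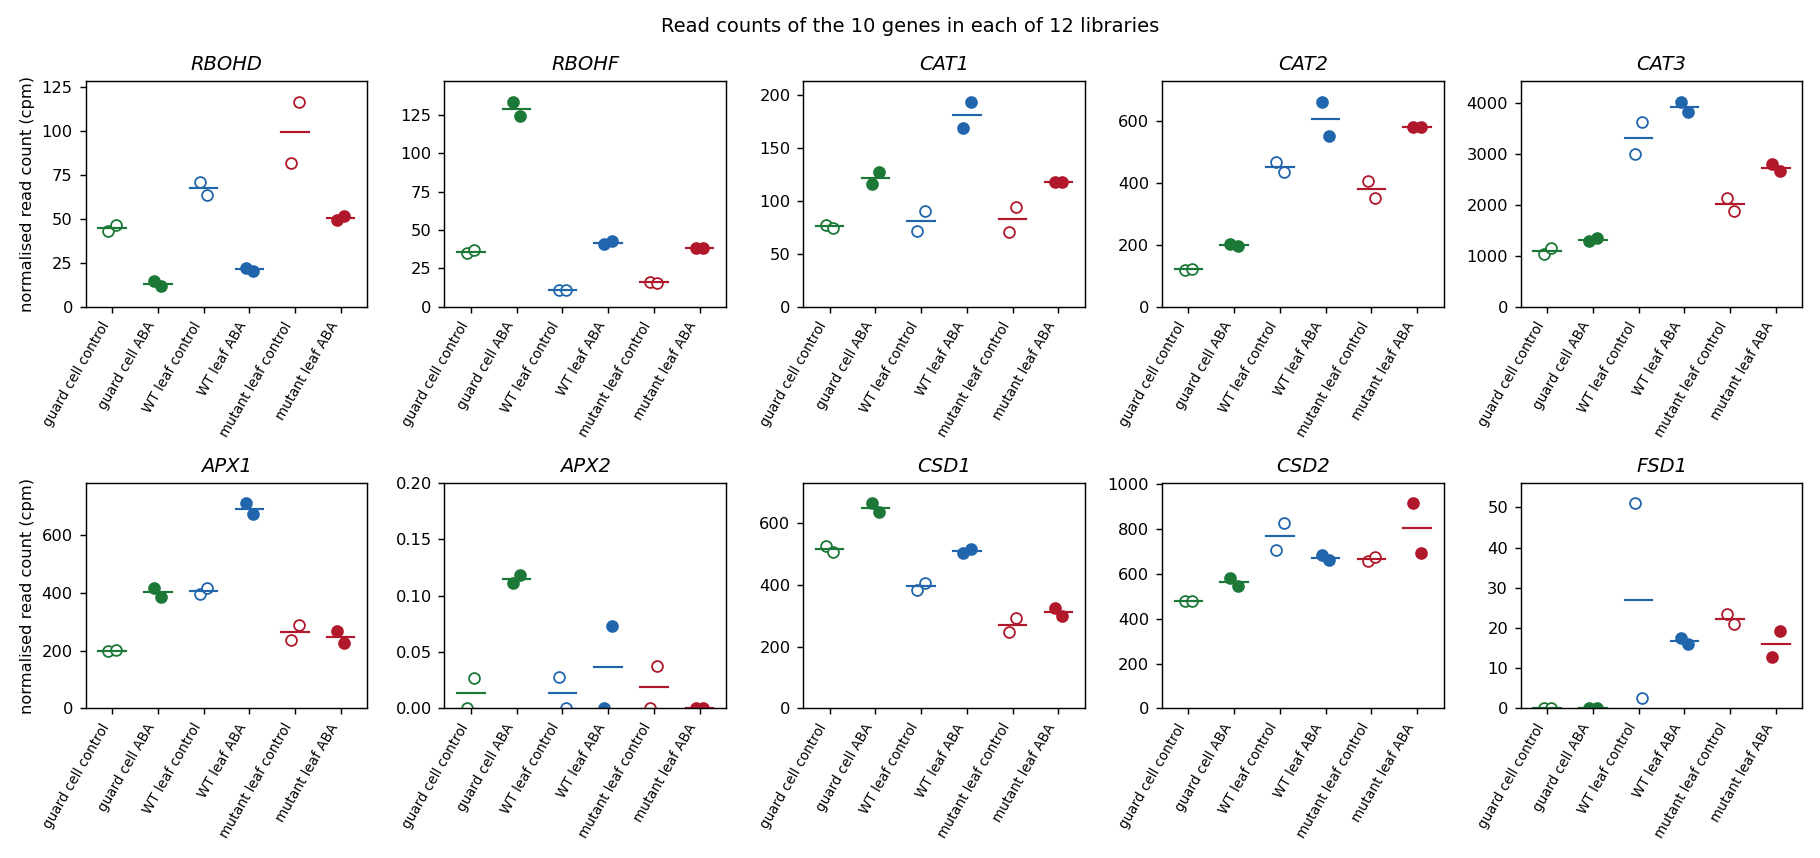
Normalised read count (cpm, linear axes from 0) of each of the 10 genes in all 12 libraries; each point is 1 library, open for control and filled for ABA, and bars are group means. RBOHD was lower and RBOHF higher with ABA in all 3 materials, FSD1 was near 0 in guard cell preparations, and APX2 stayed at or below 0.118 cpm.

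ABA lowered RBOHD and raised RBOHF in all 3 materials, and it raised CAT1 and CAT2 in all 3. APX1 rose in guard cell preparations and wild-type leaves and was not called in the mutant. Of the 9 tested members, 7 were called with ABA in guard cell preparations (6 higher, 1 lower), where 57.5% of all tested loci were called, 29.0% higher and 28.5% lower. In wild-type leaves 6 were called (5 higher, 1 lower), against 61.1% of all loci called, 27.5% higher and 33.7% lower. In mutant leaves 5 were called (4 higher, 1 lower), against 34.4% called, 18.9% higher and 15.5% lower. The median log2 fold change of the 9 members was 0.33, 0.37 and 0.27 in the 3 materials, against -0.02, -0.08 and 0.01 over all loci. The 9 include FSD1, which had only 0 to 3 counts in each guard cell library.

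**Figure D2:**
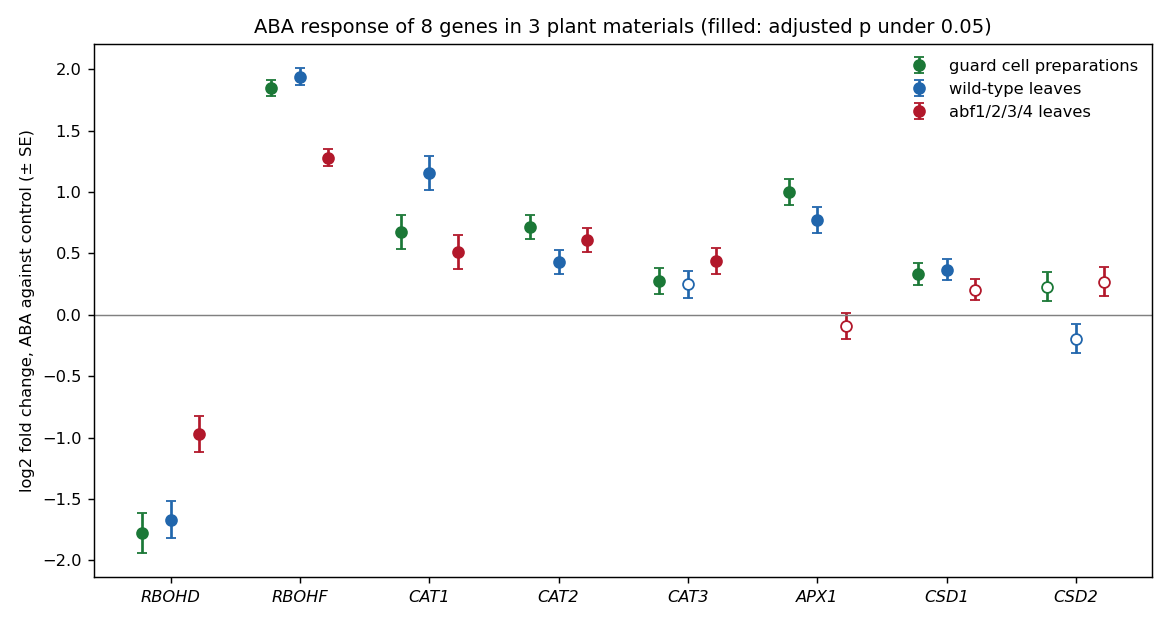
Log2 fold change with ABA against control (vertical axis, ± SE, 2 libraries per group) for 8 members in the 3 materials (abf1/2/3/4 leaves in red); filled points passed the test. RBOHD lies between -1.78 and -0.97, RBOHF between 1.28 and 1.94, and APX1 at -0.09 in the mutant against 1.003 and 0.77 in the other materials.

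RBOHD (AT5G47910, chromosome 5, 19397041 to 19402061, plus strand) encodes the NADPH oxidase best known for the oxidative burst in immunity. Its level was 43.2 and 46.3 cpm in guard cell control libraries and 14.4 and 11.6 cpm with ABA. In wild-type leaves it was 71.0 and 63.5 cpm at control and 22.1 and 20.3 cpm with ABA. The mutant leaves held 81.6 and 116.5 cpm at control and 49.5 and 51.6 cpm with ABA. Every ABA library was thus below every control library of the same material, and the mutant had the highest level in either condition. The fall was 3.43-fold in guard cell preparations (log2 -1.78, SE 0.161, adjusted p = 3.63e-06), 3.18-fold in wild-type leaves (log2 -1.67, SE 0.152, adjusted p = 3.08e-06) and 1.96-fold in the mutant (log2 -0.97, SE 0.146, adjusted p = 0.000516). Each of these calls held under all alternatives tried.

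Mutant leaves showed a smaller fall of RBOHD than wild-type leaves, with a difference between the responses of 0.70 in log2 units (SE 0.209, adjusted p = 0.0233). That difference missed the threshold, at 0.0518 to 0.0826, when either mutant ABA library, the second wild-type ABA library or the first wild-type control library was left out, and at 0.0625 when only the 8 leaf libraries were fitted. With ABA, RBOHD was 2.39-fold higher in the mutant (adjusted p = 3.98e-05). At control it was 1.47-fold higher (adjusted p = 0.0167), a value that rested on the second mutant library: without it the log2 difference was 0.28 (adjusted p = 0.0953), and without the second wild-type control library it was 0.48 (adjusted p = 0.113).

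RBOHF (AT1G64060, chromosome 1, 23769774 to 23776984, plus strand) is the second oxidase of the ABA closure pathway. Guard cell control libraries held 34.9 and 36.8 cpm, and guard cell ABA libraries 133.8 and 124.1 cpm. Wild-type leaves went from 10.8 and 11.0 cpm at control to 40.6 and 43.0 cpm with ABA, and mutant leaves from 16.0 and 15.5 cpm to 38.4 and 38.1 cpm. ABA and control libraries did not overlap in any material, and replicates lay close together. RBOHF rose 3.60-fold in guard cell preparations (log2 1.85, SE 0.0659, adjusted p = 2.99e-09), 3.83-fold in wild-type leaves (log2 1.94, SE 0.0702, adjusted p = 3.29e-09) and 2.43-fold in the mutant (log2 1.28, SE 0.0696, adjusted p = 1.33e-06).

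Mutant leaves also showed a smaller rise of RBOHF, with a difference between the responses of -0.66 in log2 units (SE 0.0979, adjusted p = 0.000415), a call that held in all 20 alternatives. At control, mutant leaves were 1.45-fold above wild-type leaves (adjusted p = 0.000807). With ABA the mutant and wild-type levels differed by -0.13 (95% interval -0.27 to 0.02, adjusted p = 0.12), a difference that was called under RLE scaling (-0.19, adjusted p = 0.0261). The smaller fold in the mutant thus came with a higher starting level and a final level close to that of wild-type leaves.

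The ratio of RBOHF to RBOHD within a library does not depend on how libraries are scaled. Per kilobase of exon it was 0.729 and 0.718 in guard cell control libraries and 8.36 and 9.63 with ABA. In wild-type leaves it was 0.136 and 0.157 at control and 1.65 and 1.91 with ABA. RBOHD was therefore the more abundant of the pair in the control libraries of both materials, and RBOHF in their ABA libraries. In mutant leaves the ratio was 0.177 and 0.120 at control and 0.700 and 0.667 with ABA, so RBOHD stayed the more abundant.

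**Figure D3:**
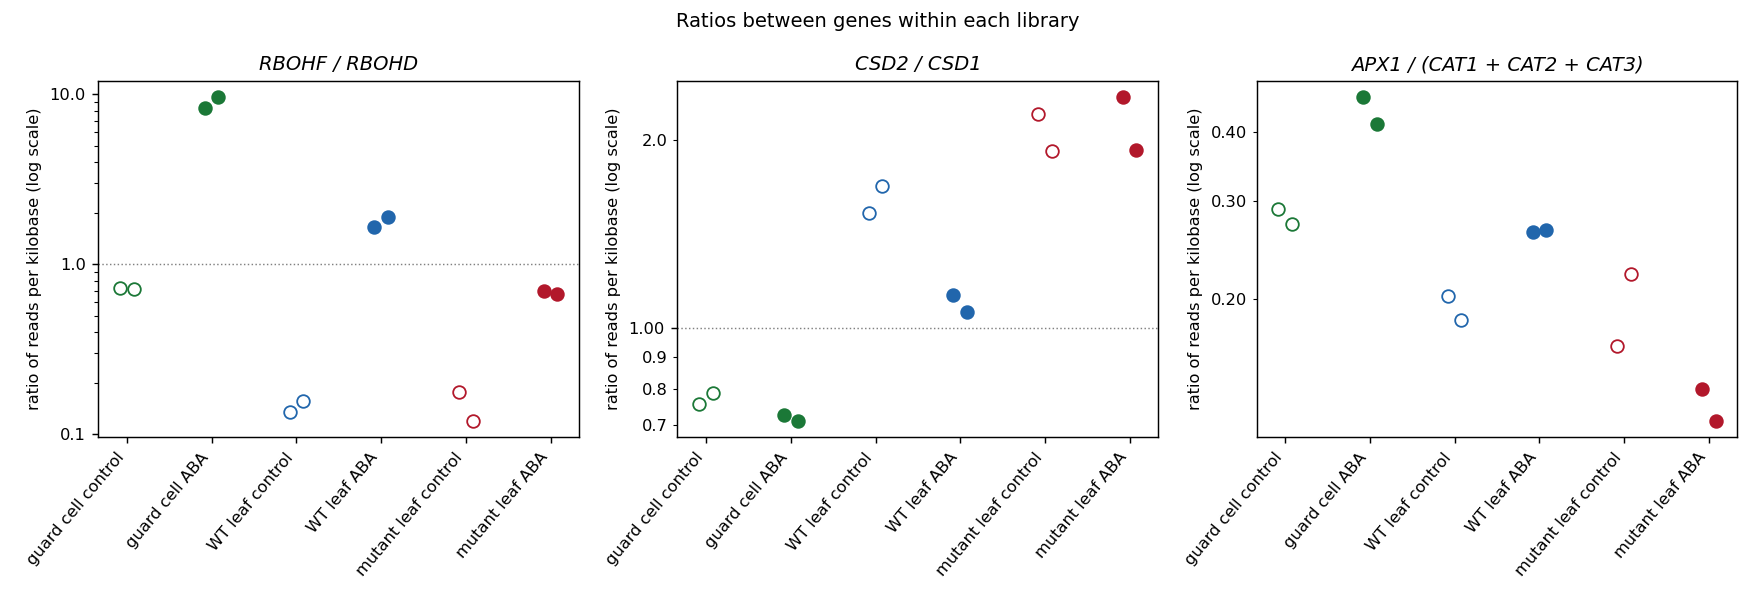
Ratios of reads per kilobase within each library (log axes; points are libraries, open for control and filled for ABA; the dotted line marks 1). RBOHF to RBOHD crossed 1 with ABA in guard cell preparations and wild-type leaves and reached 0.700 in the mutant; CSD2 to CSD1 was below 1 in guard cell preparations and above 1 in leaves; APX1 to summed catalases was above its control values with ABA in guard cell preparations and wild-type leaves and below them in the mutant.

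Of 8 other RBOH genes, 5 passed the filter, none averaged over 2 cpm in any group, and none was called with ABA in any material. Their median log2 fold change was -0.34, 0.08 and -0.39. To set beside this and the later lists, 29.0% of all loci were called higher and 28.5% lower with ABA in guard cell preparations. The shares were 27.5% and 33.7% in wild-type leaves and 18.9% and 15.5% in the mutant. Among 8 genes of kinases and other proteins that act on the oxidases or sense peroxide, 1 rose and 3 fell in guard cell preparations, 2 rose and 3 fell in wild-type leaves, and 2 rose and 2 fell in the mutant. Their medians were -0.14, 0.02 and -0.11. OST1, the ABA-activated kinase of guard cells that phosphorylates RBOHF, stood at 44.1 and 41.1 cpm in guard cell control libraries and 36.9 and 39.0 cpm with ABA. It was not called there (log2 -0.17, adjusted p = 0.0609). It was called lower with upper quartile scaling (-0.28, adjusted p = 0.00526) and with library totals alone (-0.47, adjusted p = 0.000113). In wild-type leaves OST1 rose from 11.1 and 11.9 cpm to 29.5 and 29.9 cpm (log2 1.37, SE 0.0741, adjusted p = 5.88e-08). Its rise in the mutant was 0.47 (adjusted p = 0.000904), a smaller response than in wild-type leaves (difference -0.90, adjusted p = 9.9e-05). GHR1, a receptor-like protein needed for the guard cell response to peroxide, fell in guard cell preparations (log2 -1.85, adjusted p = 0.00018) and in wild-type leaves (log2 -2.63, adjusted p = 9.02e-06). In the mutant GHR1 was at 7.28 and 6.15 cpm at control and 5.53 and 3.76 cpm with ABA (adjusted p = 0.114). With library totals alone GHR1 was called lower there (log2 -0.67, adjusted p = 0.0377). BIK1, an immune kinase that phosphorylates RBOHD, fell in all 3 materials, with log2 fold changes of -0.41, -0.92 and -1.12. The guard cell call of BIK1 (adjusted p = 0.0462) was kept in 4 of the 12 fits that left out a library. SIK1, a kinase that acts with BIK1, rose in guard cell preparations and wild-type leaves, by 0.55 and 0.66. Its mutant value of 0.20 (adjusted p = 0.0394) was also kept in 4 of those 12 fits, and not with DESeq2 (adjusted p = 0.123). The number of these 8 genes called in the mutant was 2 in place of 4 without the first mutant ABA or the second mutant control library.

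CSD1 (AT1G08830, chromosome 1, 2827060 to 2829315, plus strand), the cytosolic copper/zinc enzyme, shares 4.7% of its exon bases with a gene on the opposite strand. Guard cell libraries held 527.1 and 506.2 cpm at control and 664.5 and 636.4 cpm with ABA. Wild-type leaf libraries held 383.3 and 406.6 cpm at control and 502.9 and 515.4 cpm with ABA, and mutant libraries 248.4 and 291.8 cpm, then 324.2 and 297.7 cpm. The ABA libraries were above the controls in each material, by small margins. CSD1 rose in guard cell preparations (log2 0.33, SE 0.0861, adjusted p = 0.00662) and 1.29-fold in wild-type leaves (log2 0.37, SE 0.0861, adjusted p = 0.00332). The mutant value of 0.20 was not called (adjusted p = 0.0931), except without the second mutant control library (0.32, adjusted p = 0.021), and the responses of the genotypes were not shown to differ (-0.16, 95% interval -0.43 to 0.11, adjusted p = 0.333). The guard cell rise depended on scaling: with library totals alone it was 0.03 (adjusted p = 0.766), a scaling that moved the median of all loci by -0.30.

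CSD2 (AT2G28190, chromosome 2, 12014412 to 12016569, plus strand), the chloroplast copper/zinc enzyme, was not called with ABA in any material. It had 480.2 and 481.1 cpm in guard cell control libraries and 582.0 and 544.7 cpm with ABA. Wild-type leaves had 708.8 and 829.6 cpm at control and 684.2 and 660.3 cpm with ABA, and mutant leaves 658.8 and 676.1 cpm, then 915.6 and 693.7 cpm. Wild-type leaves thus leaned lower with ABA and the other materials higher. The log2 fold changes were 0.23 (adjusted p = 0.123), -0.19 (adjusted p = 0.179) and 0.27 (adjusted p = 0.105). The guard cell value was -0.07 with library totals alone and passed the threshold in 3 of 20 alternatives: with only the libraries compared (0.23, adjusted p = 0.00776) and without either mutant ABA library (adjusted p = 0.0419 and 0.0422). The mutant value passed without the second mutant ABA library (0.46, adjusted p = 0.00974), and the wild-type value with library totals alone (-0.33, adjusted p = 0.0215). The difference between mutant and wild-type responses was 0.46 (95% interval 0.09 to 0.84, adjusted p = 0.0528), which passed the threshold in 5 of 20 alternatives, 1 of them without the second mutant ABA library (0.66, adjusted p = 0.00481).

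CSD2 relative to CSD1 differed between materials. Per kilobase the ratio was 0.755 and 0.788 in guard cell control libraries and 0.726 and 0.710 with ABA. In wild-type leaves it was 1.53 and 1.69 at control and 1.13 and 1.06 with ABA, and in the mutant 2.20 and 1.92, then 2.34 and 1.93. No guard cell library overlapped a leaf library, and within wild-type leaves both ABA values lay below both control values.

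FSD1 (AT4G25100, chromosome 4, 12884300 to 12887011, minus strand), the iron enzyme, takes the place of the copper/zinc enzymes when copper is scarce. Guard cell preparations had 1 and 3 counts at control and 0 and 1 counts with ABA. Wild-type leaves had 51.0 and 2.65 cpm at control and 17.4 and 16.1 cpm with ABA, and mutant leaves 23.5 and 21.0 cpm, then 12.8 and 19.1 cpm. FSD1 was thus near 0 in every guard cell library, and the wild-type control replicates stood far apart. Summed counts were divided by summed library sizes (totals times TMM factors). So scaled, wild-type leaves stood 446-fold above guard cell preparations at control (95% exact interval 174 to 1640) and 870-fold with ABA (156 to 34400). These intervals cover counting error only, and the lower leaf control library alone was at 2.65 cpm.

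The 2 wild-type control libraries differed 19.3-fold in FSD1. Among 12048 genes averaging at least 10 cpm in this group, FSD1 was the 1 gene that differed more than 4-fold, and the median gene differed 1.06-fold. The ABA response in wild-type leaves followed whichever control library was kept: the log2 fold change was -0.68 with both (adjusted p = 0.484), 2.66 without the first (adjusted p = 1.95e-05) and -1.61 without the second (adjusted p = 7.37e-05). Mutant leaves gave -0.49 (SE 0.808, adjusted p = 0.68). Over the 13 tested genes of the copper list, the first control library stood at 0.843 to 1.80 times the second.

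Among the other superoxide dismutases and their copper chaperone, 5 of 6 loci were tested: 2 rose and 2 fell in guard cell preparations, 0 rose and 3 fell in wild-type leaves, and 1 fell in the mutant (medians 0.02, -0.47 and -0.23). CCS, the chaperone that loads copper into the copper/zinc enzymes, fell from 130.7 and 130.4 to 86.5 and 85.0 cpm in guard cell preparations (log2 -0.61, adjusted p = 0.00264) and from 136.4 and 157.8 to 62.7 and 57.1 cpm in wild-type leaves (log2 -1.30, adjusted p = 9.16e-06). In mutant leaves CCS was at 114.5 and 130.4 cpm, then 121.6 and 87.5 cpm (adjusted p = 0.222), and its response differed from that of wild-type leaves by 1.07 (adjusted p = 0.0013). With library totals alone CCS was called lower in the mutant too (log2 -0.38, adjusted p = 0.0327). FSD3, an iron enzyme of chloroplast nucleoids, fell in all 3 materials, by log2 values of -1.15, -2.24 and -0.80. CSD3, a copper/zinc enzyme, rose in guard cell preparations (log2 0.40, adjusted p = 0.00442; not called with library totals alone), and 25.1% of its exon bases lie in other loci. MSD1, the mitochondrial manganese enzyme, rose in guard cell preparations by 0.27 (adjusted p = 0.0063), but with library totals alone it stood at -0.03, and the call was lost without the first ABA or the second control library. Calls for this list in the mutant went from 1 to 3 without the first mutant ABA library. Copper-response genes moved both ways: of 13 tested, 6 rose and 5 fell in guard cell preparations, 5 rose and 6 fell in wild-type leaves, and 1 rose and 4 fell in the mutant, where 3 in all were called without the first ABA library. CCH, a copper chaperone, rose in guard cell preparations (log2 1.92) and wild-type leaves (log2 1.17) and was at 0.08 in the mutant (adjusted p = 0.703). COPT6, a copper transporter, fell in all 3 (log2 -1.90, -1.54 and -0.98). ARPN rose in guard cell preparations and wild-type leaves (log2 2.16 and 2.21) and LAC13, a laccase, fell in both (log2 -1.20 and -1.04), while in the mutant they stood at 0.35 and -0.07 without a call. The microRNA genes of this list were not analysed here.

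CAT1 (AT1G20630, chromosome 1, 7146636 to 7150180, plus strand) encodes one of the peroxisomal catalases. Guard cell control libraries held 77.5 and 74.7 cpm and ABA libraries 116.0 and 127.2 cpm. In wild-type leaves it went from 71.6 and 90.9 cpm to 169.0 and 194.1 cpm, and in mutant leaves from 70.7 and 94.4 cpm to 118.0 and 117.7 cpm. The control levels of the 3 materials lay together, and ABA libraries were above controls in each. CAT1 rose 1.60-fold in guard cell preparations (log2 0.68, SE 0.139, adjusted p = 0.00165), 2.23-fold in wild-type leaves (log2 1.16, SE 0.139, adjusted p = 2.68e-05) and 1.43-fold in the mutant (log2 0.51, SE 0.139, adjusted p = 0.0151). The mutant call was lost with library totals alone (0.36, adjusted p = 0.0573), with only the libraries compared (0.47, adjusted p = 0.0799), and without either mutant ABA library or the first mutant control library (0.32 to 0.52, adjusted p = 0.0577 to 0.0817).

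The mutant response of CAT1 was below the wild-type response (difference -0.65, SE 0.196, adjusted p = 0.0247). Leaving out any of 5 leaf libraries (either mutant ABA library, the second mutant control, the second wild-type ABA or the first wild-type control library) gave -0.42 to -0.65 with an adjusted p of 0.0651 to 0.0919. With ABA, CAT1 was 1.54-fold lower in the mutant (log2 -0.62, adjusted p = 0.00259), and this held in all 20 alternatives.

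CAT2 (AT4G35090, chromosome 4, 16700312 to 16703504, minus strand) removes photorespiratory peroxide in leaf peroxisomes, and 3.43% of its exon bases lie in a gene on the opposite strand. Its level went from 119.1 and 122.7 cpm to 201.7 and 196.0 cpm in guard cell preparations. It went from 466.9 and 433.0 cpm to 661.9 and 551.5 cpm in wild-type leaves, and from 406.5 and 350.2 cpm to 578.6 and 578.2 cpm in the mutant. All ABA libraries were above the controls of their material. The rise was 1.65-fold (log2 0.72, SE 0.0989, adjusted p = 9.63e-05), 1.35-fold (log2 0.43, SE 0.0975, adjusted p = 0.00263) and 1.53-fold (log2 0.61, SE 0.0978, adjusted p = 0.000761), and each call held under all alternatives. Mutant and wild-type responses were not shown to differ (0.18, 95% interval -0.12 to 0.49, adjusted p = 0.342).

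CAT3 (AT1G20620, chromosome 1, 7142972 to 7146540, plus strand) was the most abundant catalase in every library. Guard cell preparations held 1023 and 1146 cpm at control and 1282 and 1341 cpm with ABA. Wild-type leaves held 2991 and 3615 cpm, then 4020 and 3823 cpm, and mutant leaves 2129 and 1883 cpm, then 2788 and 2654 cpm. ABA libraries lay above controls in each material by a small margin. CAT3 rose in the mutant (log2 0.44, SE 0.107, adjusted p = 0.00897), a call lost without the first mutant ABA library (0.40, adjusted p = 0.0521) or the second mutant control library (0.35, adjusted p = 0.0597). The guard cell value of 0.27 (adjusted p = 0.0474) barely passed, failed in 12 of 20 alternatives and was -0.03 with library totals alone. The wild-type leaf value of 0.25 did not pass (adjusted p = 0.0659), although it did with DESeq2 (0.32, adjusted p = 0.00553), with RLE scaling (0.32, adjusted p = 0.0192) and without the second wild-type control library (0.39, adjusted p = 0.0175).

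Catalase makeup was compared within libraries, per kilobase. CAT3 made up 75.0% to 84.4% of catalase reads in every library. CAT1 made up 8.06% to 10.9% in guard cell preparations, against 2.97% and 3.23% in wild-type leaf control libraries and 5.05% and 6.16% with ABA. In the mutant its share was 3.93% and 5.85% at control and 4.88% and 5.06% with ABA. Guard cell preparations thus had a larger CAT1 share than every leaf library, and the share in wild-type leaves was higher with ABA in both libraries while that in the mutant overlapped.

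**Figure D4:**
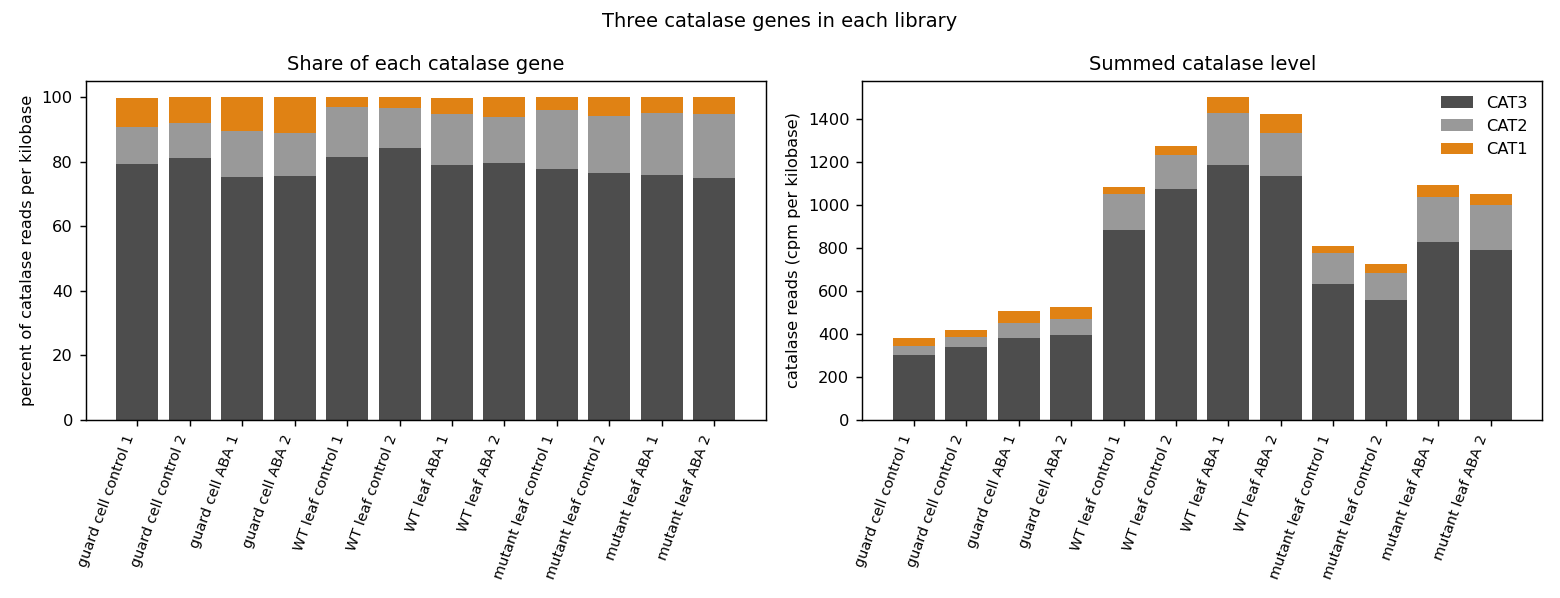
Share of CAT1, CAT2 and CAT3 in catalase reads per kilobase (left, percent) and their summed level (right, cpm per kilobase) in each library. CAT3 dominated throughout; the sum was 380 to 524 in guard cell preparations, 1080 to 1500 in wild-type leaves and 725 to 1090 in mutant leaves.

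Around the catalases, 4 genes were followed: 3 glycolate oxidases, which make peroxide during photorespiration, and NCA1, a protein that catalases need for activity. In guard cell preparations 2 rose and 1 fell, in wild-type leaves 2 rose and 2 fell, and in the mutant 1 rose. NCA1 rose from 69.4 and 63.9 to 104.1 and 105.5 cpm in guard cell preparations, from 106.2 and 114.5 to 172.7 and 174.8 cpm in wild-type leaves and from 86.9 and 83.9 to 112.1 and 107.8 cpm in the mutant. Its log2 fold changes were 0.65, 0.65 and 0.36, with a smaller response in the mutant (-0.29, adjusted p = 0.033). GOX2 fell in guard cell preparations (log2 -0.9961) and wild-type leaves (log2 -1.03), and was at -0.15 in the mutant (adjusted p = 0.172). With library totals alone GOX2 was called lower in the mutant (log2 -0.30, adjusted p = 0.00756). GOX1 fell in wild-type leaves (log2 -0.58, adjusted p = 0.000162). GOX3, at under 2 cpm in every library, rose in guard cell preparations (log2 2.12) and wild-type leaves (log2 2.34), the latter call being lost without the second wild-type ABA or control library.

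APX1 (AT1G07890, chromosome 1, 2437281 to 2439665, plus strand), the main cytosolic ascorbate peroxidase, differed in its ABA response between genotypes. Guard cell libraries held 197.3 and 203.4 cpm at control and 415.7 and 387.6 cpm with ABA. Wild-type leaves went from 394.9 and 416.0 cpm to 711.2 and 673.8 cpm. Mutant leaves held 238.4 and 287.9 cpm at control and 268.0 and 225.8 cpm with ABA, so these groups overlapped while those of the other materials stood well apart. APX1 rose 2.00-fold in guard cell preparations (log2 1.003, SE 0.105, adjusted p = 1.14e-05) and 1.71-fold in wild-type leaves (log2 0.77, SE 0.104, adjusted p = 6.48e-05). The mutant value was -0.09 (95% interval -0.32 to 0.14, adjusted p = 0.539).

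The mutant response of APX1 differed from that of wild-type leaves by -0.86 (SE 0.147, adjusted p = 0.00101), and the call held in all 20 alternatives, with values from -0.99 to -0.72. Mutant leaves had 1.54-fold less APX1 than wild-type leaves at control (log2 -0.62, adjusted p = 0.00211) and 2.80-fold less with ABA (log2 -1.49, adjusted p = 7.98e-07). Relative to summed catalases within a library, APX1 stood at 0.290 and 0.273 in guard cell control libraries and 0.461 and 0.413 with ABA. The ratio was 0.203 and 0.184, then 0.264 and 0.266 in wild-type leaves, and 0.165 and 0.222, then 0.138 and 0.121 in the mutant. It was thus higher with ABA in guard cell preparations and wild-type leaves and lower in the mutant, with no overlap in any of the 3.

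APX2 (AT3G09640, chromosome 3, 2956156 to 2958330, plus strand), a cytosolic form known for induction by heat and excess light, had 0 to 3 counts in each library and at most 0.118 cpm. It was not tested, and no difference was detectable at this depth. Of 9 tested heat shock genes, 3 rose and 3 fell in guard cell preparations and in wild-type leaves, and 1 rose and 2 fell in the mutant. Of all loci, 29.0% were called higher and 28.5% lower in guard cell preparations. These shares were 27.5% and 33.7% in wild-type leaves and 18.9% and 15.5% in the mutant. HSFA7A, a heat stress factor, fell from 2.82 and 2.96 cpm to 0 and 0.0394 cpm in guard cell preparations (adjusted p = 7.45e-07) and from 1.75 and 1.88 cpm to 0.0712 and 0.0243 cpm in wild-type leaves (adjusted p = 1.8e-06). HSFA7A also fell in the mutant, from 1.85 and 2.61 cpm to 0.144 and 0.160 cpm (adjusted p = 2.44e-05). HSFA3 fell in guard cell preparations and wild-type leaves (log2 -1.57 and -1.01), and HSP17.6II, a small heat shock protein, rose in both while staying under 2 cpm. DREB2A, a regulator of drought and heat responses, rose in guard cell preparations (log2 1.56) and wild-type leaves (log2 1.99) and was at 0.25 in the mutant (adjusted p = 0.335).

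Of 16 other genes of the ascorbate-glutathione cycle, which renews the ascorbate that ascorbate peroxidases use, 9 rose and 2 fell in guard cell preparations, and 5 rose and 3 fell in either leaf genotype. The medians were 0.24, -0.02 and 0.07. With library totals alone the guard cell split was 3 higher and 4 lower. In the mutant the number called went from 8 to 5 without its first ABA or second control library, and the genes called higher from 5 to 2 with only the libraries compared. DHAR1, a dehydroascorbate reductase, rose from 167.3 and 133.4 to 509.7 and 511.8 cpm in guard cell preparations, from 235.0 and 220.8 to 906.6 and 1106 cpm in wild-type leaves and from 241.6 and 114.5 to 459.8 and 538.3 cpm in the mutant. Its log2 fold changes were 1.76, 2.14 and 1.49, and the genotypes were not shown to differ (-0.66, SE 0.366, adjusted p = 0.193). GR1, a glutathione reductase, rose by 0.90 in guard cell preparations and 1.42 in wild-type leaves, and its mutant response was smaller (-1.03, adjusted p = 0.000634). The mutant value of GR1 itself, 0.39, lost its call without either mutant ABA library or the second mutant control library. MDAR3, a monodehydroascorbate reductase, fell in the mutant (log2 -1.74, adjusted p = 0.0192), with control replicates at 14.1 and 30.8 cpm, a call lost without the first mutant ABA or the second mutant control library. MDAR6, a monodehydroascorbate reductase of organelles, fell in all 3 materials (log2 -0.31, -1.18 and -0.42).

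Glutathione peroxidases and peroxiredoxins are thiol enzymes that also reduce peroxides. Of 15 tested, 8 rose and 0 fell in guard cell preparations, 5 rose and 6 fell in wild-type leaves, and 3 rose and 0 fell in the mutant (medians 0.34, 0.06 and 0.13). Of all loci, 29.0% were called higher and 28.5% lower in guard cell preparations. These shares were 27.5% and 33.7% in wild-type leaves and 18.9% and 15.5% in the mutant. With library totals alone the guard cell split of the list was 4 higher and 5 lower. Calls in guard cell preparations went from 8 to 5 without the second ABA library or either control library, and calls in the mutant from 3 to 5 without its second control library. GPX6 went from 239.1 and 249.4 to 650.7 and 673.6 cpm in guard cell preparations, from 162.2 and 146.3 to 430.7 and 429.4 cpm in wild-type leaves and from 162.7 and 150.9 to 266.0 and 259.8 cpm in the mutant (log2 1.44, 1.48 and 0.75). GPX2 rose by 1.37 in guard cell preparations and 2.00 in wild-type leaves, and its mutant response was below that of wild-type leaves (-1.64, adjusted p = 6.79e-06). The mutant value of GPX2, 0.36, lost its call without the second mutant ABA or the first mutant control library. AT3G52960, a locus of the peroxiredoxin list, fell in wild-type leaves from 136.1 and 145.0 to 90.09 and 80.35 cpm and stood at 193.9 and 185.7, then 213.0 and 182.3 cpm in the mutant. AT3G11630, of the same list, fell in wild-type leaves from 630.1 and 659.8 to 479.3 and 438.3 cpm.

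**Figure D5:**
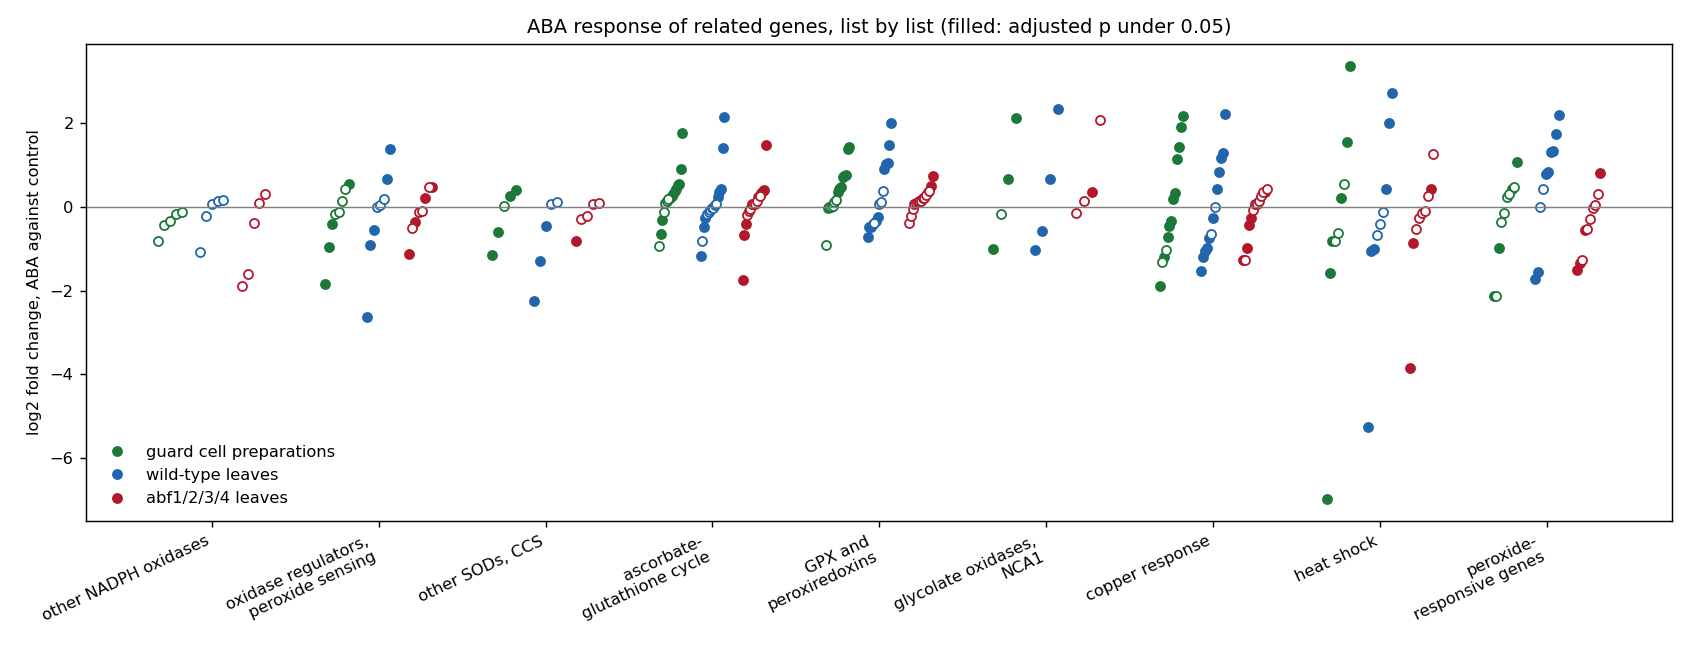
Log2 fold change with ABA (vertical axis) of 85 tested genes in 9 related lists, in the 3 materials (abf1/2/3/4 leaves in red); each point is a gene, filled where it passed the test. Most lists hold genes that moved in each direction, and none of the 5 other NADPH oxidases passed.

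A list of 10 genes known to respond to peroxide or other reactive oxygen was tested in full. In guard cell preparations 2 rose and 2 fell, in wild-type leaves 6 rose and 2 fell, and in the mutant 1 rose and 3 fell (medians 0.04, 0.80 and -0.41). The number called went from 8 to 5 in wild-type leaves without the second wild-type ABA library, and from 4 to 2 in the mutant without the first mutant ABA library. The ABA response differed between genotypes for 7 of the 10, each with a lower response in the mutant, against 15.1% of all loci lower. That count ran from 5 to 7 over the alternatives. At control, 9 of the 10 were higher in mutant than in wild-type leaves, against 12.1% of all loci higher, with 6 to 9 over the alternatives and 7 without the second mutant control library. Both counts use the same control libraries and are not independent. The list was chosen with earlier results of these data known, so the shares of all loci are given as a description only. With ABA the level was higher in the mutant for 3 of the 10 and lower for 2, against 30.7% and 26.6% of all loci. GSTU24, a glutathione transferase, stood at 6.999 and 6.632 cpm in wild-type control, 30.7 and 31.9 cpm in wild-type ABA, 14.98 and 22.15 cpm in mutant control and 37.1 and 27.3 cpm in mutant ABA libraries. Its rise in the mutant (adjusted p = 0.0314) was lost without the first mutant ABA or the first mutant control library. ERF6, a transcription factor of the oxidative stress response, fell with ABA in all 3 materials (log2 -2.14, -1.56 and -1.34) and was higher in the mutant at control (log2 1.53, adjusted p = 0.000967). BAP1 rose in wild-type leaves (log2 1.73, adjusted p = 0.00145) and was at -0.53 in the mutant (adjusted p = 0.251). ZAT7, whose fall in wild-type leaves (log2 -1.72, adjusted p = 0.0333) was lost without any 1 of the 4 wild-type leaf libraries, differed widely between mutant control replicates, at 5.75 and 28.3 cpm.

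The ABA responses of guard cell preparations and wild-type leaves were compared directly. None of the 9 members was called by edgeR's quasi-likelihood test in the main fit, against 15.0% of all loci (9.87% higher and 5.18% lower). FSD1 is among the 9, but with an SE of 6.99 the test could not decide for it. At an unadjusted p under 0.05 there were 2, CAT1 (-0.48, SE 0.195, adjusted p = 0.124) and CSD2 (0.42, SE 0.168, adjusted p = 0.118). DESeq2 called 1, CAT1 (-0.56, adjusted p = 0.0481). With library totals alone edgeR's test called CAT1 (-0.65, adjusted p = 0.0421). With only the libraries compared it called CSD2 (0.42, adjusted p = 0.031). The difference for RBOHF was -0.09 (95% interval -0.30 to 0.11) and that for RBOHD -0.11 (-0.59 to 0.37). For APX1 it was 0.23 (-0.09 to 0.55).

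Between mutant and wild-type leaves the ABA response differed for 4 of the 9 members (1 higher, 3 lower), RBOHD, RBOHF, CAT1 and APX1, against 35.1% of all loci (20.1% higher and 15.1% lower). For RBOHD the higher value is a smaller fall. At control 5 of 9 differed between genotypes (2 higher, 3 lower), against 26.5% of all loci (12.1% higher and 14.4% lower), and with ABA 5 of 9 (1 higher, 4 lower), against 57.3% (30.7% higher and 26.6% lower). CSD1 was lower in the mutant in either condition (log2 -0.55, adjusted p = 0.00164, and -0.71, adjusted p = 4.05e-05), and so was CAT3 (log2 -0.72, adjusted p = 0.00123, and -0.53, adjusted p = 0.00156). These comparisons share the wild-type and mutant libraries with those above and are not independent of them.

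Between guard cell preparations and wild-type leaves, 8 of 9 members differed at control (2 higher, 6 lower). Of all loci, 62.8% differed at control (30.2% higher and 32.6% lower). With ABA 8 members differed too (2 higher, 6 lower), against 64.6% of all loci (32.7% higher and 31.9% lower). FSD1 is among the lower members in either condition. It had 0 to 3 counts in each guard cell library and passed the low-count filter only through leaf libraries, so its call adds little here. RBOHF was 3.29-fold higher in guard cell preparations at control (log2 1.72, SE 0.0701, adjusted p = 1.11e-08) and 3.09-fold higher with ABA (log2 1.63, adjusted p = 1.05e-08). CSD1 was 1.31-fold higher at control (log2 0.39, adjusted p = 0.00228). CAT2 was 3.72-fold lower at control (log2 -1.90, adjusted p = 5.37e-08), CAT3 3.05-fold lower (log2 -1.61, adjusted p = 3.07e-07), APX1 2.02-fold lower (log2 -1.02, adjusted p = 7.67e-06) and CSD2 1.60-fold lower (log2 -0.68, adjusted p = 0.000473). RBOHD was lower (log2 -0.59, adjusted p = 0.00448), but with library totals alone the difference was -0.20 (adjusted p = 0.23), a scaling that moved the median of all loci by 0.38. CAT1 stood at -0.09 at control (adjusted p = 0.572), and at 0.29 with library totals alone. The 6 mesophyll markers were lower in guard cell preparations in either condition, 6 of 6, and 5 of 6 vasculature markers were higher; their part in these differences was not tested.

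The order of levels per kilobase also differed by material. In guard cell control libraries it ran CSD1 (591.8 ± 16.9, SD, n = 2 here and below), CSD2 (456.5 ± 0.615), CAT3 (320.4 ± 25.6), APX1 (111.9 ± 2.42), CAT2 (43.7 ± 0.932), CAT1 (34.2 ± 0.886), RBOHD (12.4 ± 0.609) and RBOHF (8.98 ± 0.338) cpm per kilobase, with no overlap between neighbours. With ABA that order was the same except that RBOHF (32.3 ± 1.72) passed RBOHD (3.62 ± 0.552). In wild-type leaves at control CAT3 led (975.8 ± 130.4), followed by CSD2 (730.5 ± 81.1), CSD1 (452.4 ± 18.9), APX1 (226.5 ± 8.35), CAT2 (162.6 ± 8.68), CAT1 (36.5 ± 6.13), RBOHD (18.7 ± 1.48), FSD1 (17.3 ± 22.0) and RBOHF (2.73 ± 0.0509). The FSD1 replicates, at 32.9 and 1.71 cpm per kilobase, spanned the levels of CAT1, RBOHD and RBOHF there, so its place in this order is not separated from theirs. With ABA RBOHF (10.5 ± 0.427) and FSD1 (10.8 ± 0.620) overlapped, both above RBOHD (5.88 ± 0.364). In mutant leaves CSD2 and CAT3 overlapped in either condition, and CAT2 (209.0 ± 0.0830) stood above APX1 (137.9 ± 16.7) with ABA, while in wild-type ABA leaves APX1 (386.9 ± 14.8) stood above CAT2 (219.3 ± 28.2).

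The loci whose levels followed a member most closely over the 12 libraries are given by Pearson's r of log2 cpm, as a description. The points share library scaling and 6 treatment groups. RBOHD was matched by AT1G03740, a protein kinase (r = 0.992), and LYK4, a LysM receptor-like kinase of chitin perception (0.991). RBOHF was matched by FRO2, a ferric reductase (0.994), and AT1G11170 (0.990). For APX1 the closest were AT1G49960 (0.982) and AT5G05360 (0.974), for CAT1 UBC34 (0.971) and AT3G61960 (0.970), for CAT2 AT3G18500 (0.996) and SEP2 (0.994), and for CAT3 AT3G05350 (0.989) and AKR2 (0.988). CSD2 was matched by GLYR1, a glyoxylate reductase (0.961), and AT3G61870 (0.942), and FSD1 by AT3G60860 (0.980) and UCH2 (0.974). FSD1 had only 0 to 3 counts in each guard cell library, so its r includes the gap between those libraries and leaves. For CSD1 the closest were AT2G11225 (0.993) and AT2G18270 (0.991), whose exon bases lie wholly inside other loci, so their counts may not be separate measurements.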

How the data were processed

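RNA-seq of 12 Arabidopsis libraries was analysed from the authors' deposited raw read counts per locus, which carry no normalization. The submitters' processing notes name Trim Galore 0.6.5, cutadapt, FastQC, SAMtools, featureCounts, DESeq2 1.26.0 and build TAIR10; the aligner, the annotation and the use of strand are not given in the sources used here. Exon length, overlap and upstream sequence came from RefSeq TAIR10.1, in which all 10 members matched.

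Loci were filtered with filterByExpr (minimum 10 counts), scaled with TMM factors and fitted as 6 group means without a replicate term in edgeR 4.0.16 (R 4.3.3). The test was the quasi-likelihood F-test, two-sided, adjusted by Benjamini-Hochberg over 22341 loci in each of 9 contrasts. SE is the log2 fold change over the square root of F. Low counts of FSD1 were compared by summed counts, scaled by library totals times TMM factors, with a 95% exact interval. Code was tested on simulated data. Alternatives were scaling by RLE, by upper quartile or by library totals alone, testing without the filter, DESeq2 1.42.0, only the libraries compared, a replicate block, an adjusted p under 0.01 and leaving out each of 12 libraries. Named list genes are up to 2 rising and 2 falling called loci per list with the largest change in any of the 3 ABA contrasts and at least 1 cpm in the higher group, and the 2 loci most correlated with each member. Members and lists were chosen with earlier results of these data known.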

Additional observations from a re-analysis of the deposited data

Results flagged for a closer look

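A set of 4 members responded to ABA differently in mutant and wild-type leaves, by the test of the difference itself (edgeR's quasi-likelihood F-test, Benjamini-Hochberg adjustment over all loci); they are 4 of 9 tested, beside 35.1% of all loci. The mutant response minus the wild-type response was 0.70 for RBOHD, with ABA libraries below controls in 2 of 2 libraries of each genotype (adjusted p = 0.0233). It was -0.66 for RBOHF, with ABA libraries above controls in both genotypes (adjusted p = 0.000415), and -0.65 for CAT1, likewise above controls in both (adjusted p = 0.0247). It was -0.86 for APX1, where wild-type ABA libraries were above controls and mutant libraries overlapped (adjusted p = 0.00101). The calls for RBOHF and APX1 held in all 20 alternatives. Those for RBOHD and CAT1 were lost at an adjusted p under 0.01 and in some fits that left out a library.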

How the results depend on the processing

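Over 20 alternatives, 48 of 81 member results kept their direction and side of the threshold in every one, and 8 of the 48 called results changed in some. The number of members called went from 0 to 1 for the material difference with DESeq2, with only the libraries compared and with library totals alone, and from 4 to 2 for the genotype difference at an adjusted p under 0.01. Leaving out single libraries gave 3 to 6 members for ABA in the mutant (main 5), 0 to 1 for the material difference and 2 to 5 for the genotype difference. Over all loci, calls for ABA in the mutant fell from 7679 to 4718 with only the libraries compared and to 4762 at an adjusted p under 0.01. The mutant control difference fell from 5930 to 1984 and 2792 under the same settings and to 3087 to 6144 when libraries were left out. At an adjusted p under 0.01 the material difference fell from 3362 to 1263 loci (1771 to 4374 when libraries were left out) and the genotype difference from 7850 to 5085.

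With library totals alone the sign turned for CAT3 in guard cell preparations (-0.028), CSD2 there (-0.074), CAT1 between preparations and leaves at control (0.29; 0.037 with upper quartile scaling), CAT2 (0.049) and FSD1 (0.040) between genotypes with ABA, and CAT3 in the material difference (-0.14; -0.052 with DESeq2 and RLE, -0.00073 with upper quartile scaling). It also turned for CSD3 (-0.017 in wild-type leaves, -0.10 in the mutant), MSD1 (-0.032, -0.073 and -0.065 in the 3 materials; -0.024 in wild-type leaves with upper quartile scaling), CCH (-0.076), GOX1 (-0.024) and AT3G52960 (PRXIIE, -0.10) in the mutant, and AT3G11630 (2CPA, -0.18) in guard cell preparations.

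The sign also turned within these ranges when single libraries were left out: RBOHD -0.27 to 0.038, CAT3 -0.12 to 0.16, CSD1 -0.079 to 0.0086 and FSD1 -4.06 to 0.21 in the material difference; APX1 -0.22 to 0.052 with ABA in the mutant; CAT1 -0.26 to 0.085 between preparations and leaves and -0.20 to 0.21 between genotypes at control; CAT2 -0.19 to 0.069 and FSD1 -0.38 to 0.20 between genotypes with ABA. FSD1 ran from -1.61 to 2.66 with ABA in wild-type leaves, -3.145 to 1.118 in the genotype difference and -1.20 to 3.07 between genotypes at control. List genes that did so were CSD3 (-0.021 to 0.15), PRXIIE (-0.058 to 0.17), 2CPA (-0.23 to 0.11), ARPN (-0.053 to 0.94), LAC13 (-0.23 to 0.095) and ZAT7 (-2.02 to 0.28) in the mutant, PRXIIE (-0.17 to 0.10) and GSTU24 (-0.12 to 0.67) in guard cell preparations and MDAR3 (-1.36 to 0.045) in wild-type leaves. The cause was not tested.

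Same-numbered replicates showed no shared deviation over the tested loci (correlations -0.0819 to 0.107). These values cannot tell whether they were grown or handled together, and the main fit used no pairing. With a replicate block the members called were 6, 6, 5, 0, 4, 8, 8, 5 and 5 in the 9 contrasts, against 7, 6, 5, 0, 4, 8, 8, 5 and 5; CAT3 in guard cell preparations was lost (adjusted p = 0.0556), and FSD1 stood at -0.078 in the genotype difference and 0.035 between genotypes at control. Groups of 2 libraries limit all tests, and depth limits APX2 and, in guard cell preparations, FSD1.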
